A study of Homo sapiens with 6 samples.

Results

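The aldo-keto reductases other than AKR1B1 were examined in MDA-MB-231 cells with and without knockdown of PUS1. Members were the rows of the deposited table whose symbol is AKR1C1, AKR1C2, AKR1C3, AKR1C4, AKR1B10, AKR1A1 or AKR7A2, 7 of 60605 genes. They were chosen by name with the measured difference between the groups already known, so their differences are given as a description. Calls of members in the fit over all genes are listed below, but are not read as tests of them. MDA-MB-231 is a triple-negative breast cancer cell line, and PUS1 is an enzyme that converts uridine to pseudouridine in tRNA and other RNAs. Poly(A) RNA was sequenced from 3 libraries with a control hairpin (shControl) and 3 libraries with a hairpin against PUS1 (shPUS1), all labelled as biological replicates. Neither the labels nor the methods give separate selections or culture dates, and the spread between libraries of a group may thus be partly technical. The methods describe stable knockdown by lentiviral pLKO.1 vectors and puromycin selection of transduced cells. The column names carry the number 2 for the knockdown, and the sources used here do not say which of the hairpins listed in the study's supplement that is. A single hairpin and a single cell line limit the group as a model of loss of PUS1.

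Aldo-keto reductases are soluble enzymes that use NADPH to reduce aldehydes and ketones to alcohols. The AKR1C enzymes act on steroids and prostaglandins. AKR1C1 inactivates progesterone, AKR1C2 inactivates dihydrotestosterone, AKR1C3 makes testosterone and reduces prostaglandins, and AKR1C4 works in hepatic bile acid synthesis. AKR1B10 reduces retinal and lipid aldehydes, AKR1A1 is a broadly expressed aldehyde reductase, and AKR7A2 reduces succinic semialdehyde and aflatoxin dialdehyde. Several AKR1C genes and AKR1B10 are known targets of the transcription factor NRF2.

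Library totals lay between 14241505 and 19625998 estimated counts. PUS1 was measured at 14.5, 27.5 and 12.1 CPM (counts scaled to library size with TMM factors) in shControl 1 to 3 and at 6.57, 5.47 and 5.37 CPM in shPUS1 1 to 3, so the targeted gene was lower in every knockdown library. shControl 2 stood apart from the other libraries of its group. Its correlation with them across log2 CPM values was 0.9505 and 0.9521, against 0.981 for the other pair of shControl libraries, and values are given without it where it bears on a member. Of 7 markers of MDA-MB-231 cells, 6 exceeded 1 CPM in all libraries and TWIST1 had 0 counts. Their summed level was 3262 to 3481 CPM in shPUS1 and 4292 to 5188 CPM in shControl. VIM, CD44 and AXL were lower in every shPUS1 library than in any shControl library. ZEB1 was higher, with 92.3 to 106 CPM in shPUS1 and 69.1 to 89.3 CPM in shControl, and SPARC and FN1 overlapped. The 8 luminal markers, led by KRT19, summed to 133.9 to 158 CPM in shPUS1 and 168 to 239 CPM in shControl, with TFF1 at 0. KRT19 made up most of these sums and was lower in every shPUS1 library than in any shControl library. CDH1 (at most 1.09 CPM), ESR1 and PGR (both below 1 CPM) were higher in every shPUS1 library. GATA3, FOXA1 and EPCAM overlapped. The sums of the 6 fibroblast markers moved in the same direction as the AKR1C genes, at 82.9 to 97.0 CPM in shPUS1 and 16.8 to 60.5 CPM in shControl. PDGFRB and COL1A1 made up most of these sums. LUM was at 1.11, 0.157 and 0.545 CPM in shControl 1 to 3 and at 3.45, 4.65 and 4.54 CPM in shPUS1 1 to 3, without overlap. PDGFRA was below 1 CPM, and DCN and COL1A2 below 0.5 CPM, in all libraries, and the groups overlapped for each of these. The 5 blood markers summed to at most 4.91 CPM, nearly all CD14, and the 4 hepatocyte markers to at most 0.204 CPM. The part of these differences in the values of the members was not tested.

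The AKR1C genes lie side by side on chromosome 10 of GRCh38, and their sequences bear on how reads can be assigned to them. AKR1C1 (ENSG00000187134) spans 4963253 to 4983283 on the plus strand, AKR1C2 (ENSG00000151632) 4987400 to 5018031 on the minus strand, AKR1C3 (ENSG00000196139) 5035354 to 5107686 and AKR1C4 (ENSG00000198610) 5195462 to 5218949, the last 2 on the plus strand. Each has a coding sequence of 969 bases in 9 coding exons. AKR1C1 and AKR1C2 differed at 19 of these bases, an identity of 98.0%. AKR1C3 was 91.4% identical to AKR1C1 and 91.0% to AKR1C2, and AKR1C4 between 87.8% and 88.5% identical to the others. The window of 120 coding bases in which AKR1C1 and AKR1C2 differ most, bases 43 to 162 of the coding sequence, is shown because it is where reads can tell these genes apart. Capitals mark the 10 bases that differ between AKR1C1 and AKR1C2 in their lines, and the bases that differ from AKR1C1 in the other 2 lines (13 in AKR1C3 and 16 in AKR1C4). The sequences are those of GENCODE release 29.
AKR1C1: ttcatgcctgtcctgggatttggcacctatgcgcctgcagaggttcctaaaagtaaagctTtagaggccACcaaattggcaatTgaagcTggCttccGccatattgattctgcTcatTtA
AKR1C2: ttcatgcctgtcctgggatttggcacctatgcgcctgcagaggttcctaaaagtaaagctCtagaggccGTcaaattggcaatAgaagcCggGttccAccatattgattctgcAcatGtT
AKR1C3: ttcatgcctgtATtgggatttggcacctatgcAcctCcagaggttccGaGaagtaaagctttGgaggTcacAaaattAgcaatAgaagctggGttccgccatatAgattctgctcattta
AKR1C4: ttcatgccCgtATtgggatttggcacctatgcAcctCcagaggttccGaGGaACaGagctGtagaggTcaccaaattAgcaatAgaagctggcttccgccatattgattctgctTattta
By contrast, the last 186 coding bases (784 to 969) were identical in AKR1C1 and AKR1C2. They are shown because no read lying wholly within them can by itself be assigned to either gene.
AKR1C1 and AKR1C2: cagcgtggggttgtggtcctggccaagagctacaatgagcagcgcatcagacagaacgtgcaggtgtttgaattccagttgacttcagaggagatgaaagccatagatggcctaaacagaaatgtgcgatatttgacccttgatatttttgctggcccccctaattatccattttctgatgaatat
Over coding stretches of 100 bases, 20.7% of those of AKR1C1 and 26.4% of those of AKR1C2 were found in full in transcripts of another gene, against 9.8% for AKR1C3, 3.5% for AKR1B10, 0.7% for AKR1C4, 0.5% for AKR7A2 and 0% for AKR1A1. Over all transcript stretches of that length the share was 16.7% for AKR1C1 and 23.1% for AKR1C2. Sequencing was paired-end, and a read pair can span more than 100 bases, so these are not shares of ambiguous reads. How shared reads were treated is not given, and the split of counts between AKR1C1 and AKR1C2 is uncertain to an unknown degree. The sum over the AKR1C genes does not depend on how reads were split. Reads that were left uncounted would be missing from the sum as well. The other members lie elsewhere. AKR1B10 (ENSG00000198074) spans 134527567 to 134541412 on the plus strand of chromosome 7. AKR1A1 (ENSG00000117448) spans 45550543 to 45570049 on the plus strand and AKR7A2 (ENSG00000053371) 19303965 to 19312144 on the minus strand of chromosome 1. Their coding sequences were 42.1% to 56.9% identical to the AKR1C genes and to each other.

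The summed AKR1C genes were higher in every shPUS1 library than in any shControl library. The sum was 49.5, 17.0 and 32.8 CPM in shControl 1 to 3 and 143, 177 and 161 CPM in shPUS1 1 to 3. The means were 160 ± 16.9 CPM in shPUS1 and 33.1 ± 16.3 CPM in shControl (SD, n = 3 each). The log2 fold change was 2.28 (SE 0.34). The lowest shPUS1 library was well above the highest shControl library, and in proportion to their mean the control libraries differed among themselves more than the knockdown libraries did, with shControl 2 lowest. Without shControl 2 the log2 fold change was 1.95 (SE 0.18). In bulk RNA, more cells with a transcript and more transcript per cell cannot be told apart.

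**Figure D1:**
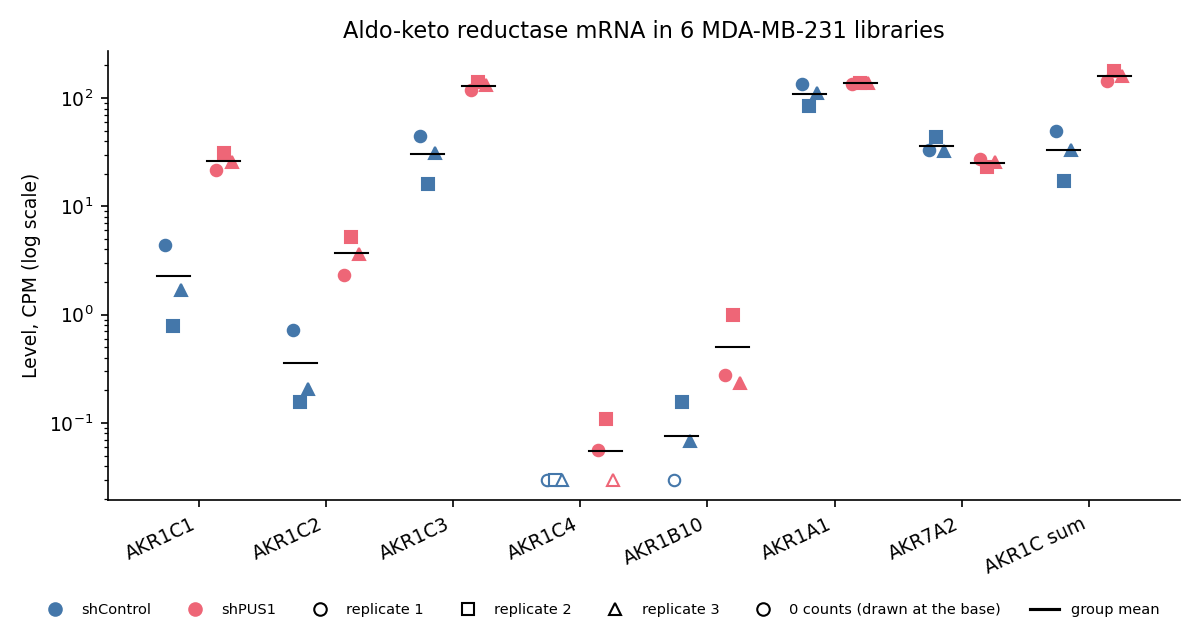
Level of each member and of the AKR1C sum in CPM (log axis) in the 3 shControl (blue) and 3 shPUS1 (red) libraries, with symbols for the replicate, lines for group means and open symbols at the base for 0 counts. The AKR1C sum sits between 143 and 177 CPM in shPUS1 and between 17.0 and 49.5 CPM in shControl, AKR1A1 overlaps between the groups and AKR7A2 is lower in shPUS1.

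AKR1C3, also called type 5 17β-hydroxysteroid dehydrogenase and prostaglandin F synthase, carried most of the AKR1C counts. It had 679, 306 and 454 counts in shControl 1 to 3 and 2141, 2570 and 2232 counts in shPUS1 1 to 3. Scaled to library size this was 44.4, 16.0 and 30.9 CPM against 119, 141 and 132 CPM. The groups did not overlap, and the knockdown libraries lay close together. The means were 130.5 ± 10.8 CPM in shPUS1 and 30.5 ± 14.2 CPM in shControl (SD, n = 3 each), with a log2 fold change of 2.10 (SE 0.33), or 1.78 (SE 0.16) without shControl 2.

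AKR1C1, known as 20α-hydroxysteroid dehydrogenase, was at a low level in shControl, above the floor of 3 counts in every library, and at a moderate level in shPUS1. It had 67, 15 and 25 counts in shControl 1 to 3 and 390, 569 and 432 counts in shPUS1 1 to 3. The means were 26.1 ± 4.75 CPM in shPUS1 and 2.29 ± 1.87 CPM in shControl (SD, n = 3 each). The control mean rests largely on shControl 1, which had 4.39 CPM, while shControl 2 had 0.786 CPM and shControl 3 had 1.70 CPM. The log2 fold change was 3.53 (SE 0.52), 3.08 without shControl 2 and 4.42 without shControl 1.

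AKR1C2, the type 3 3α-hydroxysteroid dehydrogenase, was much rarer. It had 11, 3 and 3 counts in shControl 1 to 3 and 42, 95 and 62 counts in shPUS1 1 to 3. The groups did not overlap, but 2 of the control libraries were at the floor of 3 counts. The means were 3.73 ± 1.43 CPM and 0.361 ± 0.312 CPM (SD, n = 3 each), with a log2 fold change of 3.38 (SE 0.59), 2.97 without shControl 2 and 4.33 without shControl 1. AKR1C2 passed the filter on low counts only through the shPUS1 libraries, so it could enter the fit only by being higher there.

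AKR1C4, the liver enzyme of the group, was close to absent. It had 0 counts in each shControl library, which allows up to 0.157 to 0.204 CPM, and 1, 2 and 0 counts in shPUS1 1 to 3. Both groups were at or under the floor of 3 counts, and no fold change is given. AKR1B10, a NRF2 target outside the cluster, was also rare, with 0, 3 and 1 counts in shControl 1 to 3 and 5, 18 and 4 counts in shPUS1 1 to 3. The groups did not overlap, but shPUS1 2 held most of the reads. The ratio of 27 to 4 counts, corrected for library size, was 6.22 (exact 95% interval 2.17 to 24.5, counting error only). Neither gene passed the filter on low counts.

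AKR1A1, an aldehyde reductase present in most tissues, differed little between the groups. It stood at 135, 83.9 and 110.5 CPM in shControl 1 to 3 and at 134, 138 and 138 CPM in shPUS1 1 to 3. The groups overlapped, since shControl 1 lay within the range of the knockdown libraries and only shControl 2 was clearly lower. The log2 fold change was 0.32 (SE 0.18), and 0.15 (SE 0.11) without shControl 2. AKR7A2, a member of the aflatoxin aldehyde reductases, was the only tested member with a lower level in shPUS1. Its values were 32.8, 43.6 and 32.2 CPM in shControl 1 to 3 and 27.1, 23.1 and 25.9 CPM in shPUS1 1 to 3. The groups did not overlap, and the gap was narrow. The log2 fold change was -0.51 (SE 0.17), and -0.36 (SE 0.11) without shControl 2.

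Of the 7 members, 5 passed the filter, and 3 of these (AKR1C1, AKR1C2 and AKR1C3) exceeded the threshold for a call in edgeR (adjusted p below 0.05 with log2 fold changes of 1 or more in size), all higher in shPUS1. None was called lower by edgeR or DESeq2. Over all 14748 genes tested, 0.888% were called higher and 0.481% lower. Without shControl 2 the same 3 members were called, where 1.63% of genes were called higher and 1.66% lower. With DESeq2 the 3 were called as well, where 1.66% were called higher and 1.58% lower. CPM ranges that did not overlap were found for 3 tested members in the higher direction and 1 in the lower, and over all genes tested for 18.8% and 17.3%. Since the members were chosen by this contrast, nothing is read from these counts. The calls of the 3 genes depended on the libraries, as did the calls over all genes. AKR1C1 stayed past the threshold without shControl 1 and without shControl 3, but AKR1C2 (log2 fold changes of 4.33 and 3.11) and AKR1C3 (2.48 and 2.10) did not. When any 1 of the shPUS1 libraries was left out none of the 3 was called, with log2 fold changes of 3.38 to 3.63 for AKR1C1, 3.06 to 3.61 for AKR1C2 and 2.05 to 2.16 for AKR1C3. These 5 fits tested 15082 to 15226 genes. Over all of them, 11 were called without shControl 1, 236 without shControl 3, and 11, 6 and 0 without shPUS1 1, 2 and 3.

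**Figure D2:**
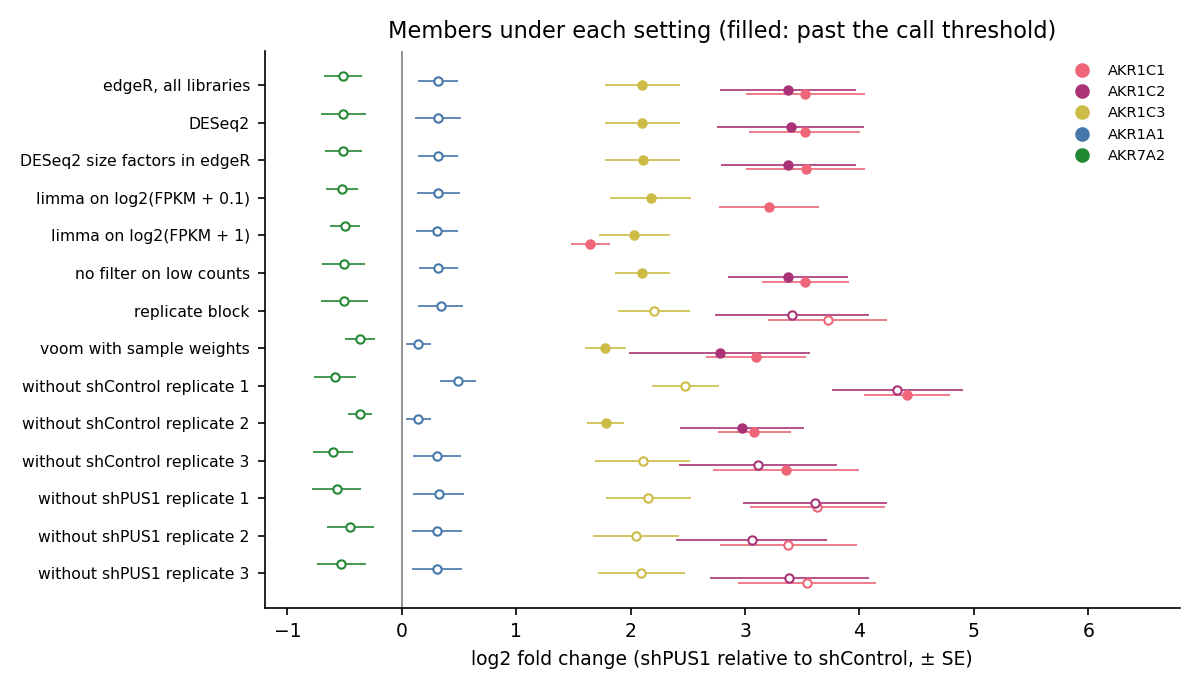
Log2 fold change with its SE for the 5 tested members under the main model and each alternative, filled where the member was past the threshold for a call. AKR1C3 stays between 1.78 and 2.48 and AKR7A2 between -0.60 and -0.36, while AKR1C1 moves between 1.65 and 4.42.

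The make-up of the AKR1C counts differed between the groups. AKR1C3 contributed 89.7%, 94.4% and 94.2% of the AKR1C counts in shControl 1 to 3 and 83.2%, 79.4% and 81.9% in shPUS1 1 to 3. The 95% Wilson intervals, which cover counting error only, ran from 87.3% to 91.7% in the lowest shControl library (shControl 1) and from 81.7% to 84.6% in the highest shPUS1 library (shPUS1 1), and did not touch. The share of AKR1C1 was 8.85%, 4.63% and 5.19% in shControl 1 to 3 and 15.2%, 17.6% and 15.8% in shPUS1 1 to 3. Every knockdown library thus held a larger part of AKR1C1 than any control library. The share of AKR1C2 was 1.45%, 0.926% and 0.622% against 1.63%, 2.94% and 2.27%. Its intervals overlapped for every pair of libraries between the groups except shControl 3 and shPUS1 2. There were 16.2 ± 5.40 AKR1C3 counts for each AKR1C1 count in shControl and 5.06 ± 0.496 in shPUS1 (SD, n = 3 each). The ratio of AKR1C1 to AKR1C2 counts was 6.47 ± 1.70 in shControl and 7.41 ± 1.69 in shPUS1, a difference smaller than the spread between libraries.

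**Figure D3:**
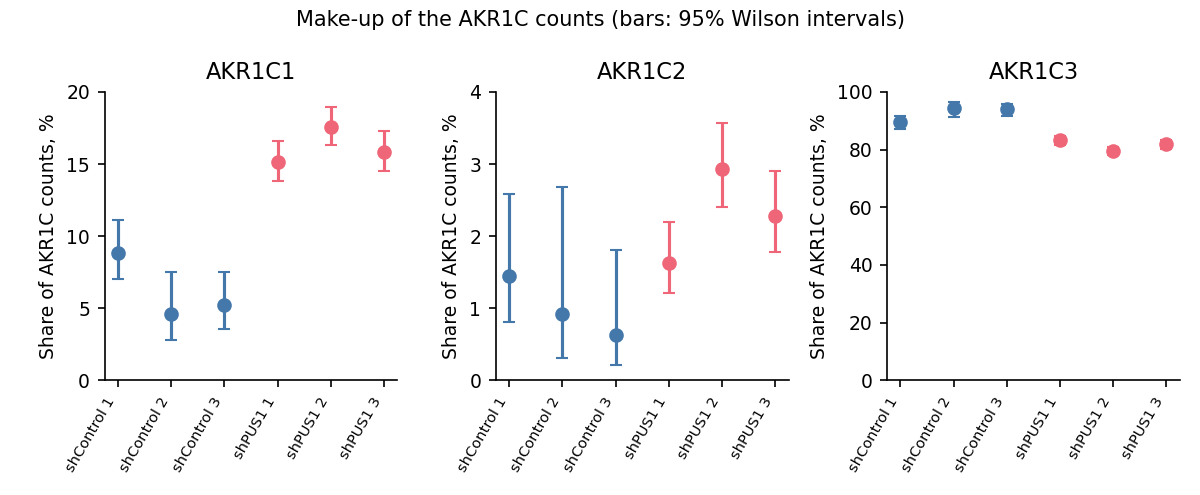
Share of all AKR1C counts, in percent, that fell to AKR1C1, AKR1C2 and AKR1C3 in each library, with 95% Wilson intervals for counting error (the vertical scales differ between panels and start at 0). AKR1C1 lies at 15.2% to 17.6% in shPUS1 and 4.63% to 8.85% in shControl, and AKR1C3 at 79.4% to 83.2% and 89.7% to 94.4%.

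Levels of different genes were compared per length, in FPKM (fragments per kilobase of exonic length, scaled to library size). In shControl the order was AKR1A1 (35.6 FPKM), AKR7A2 (20.4), AKR1C3 (7.90), AKR1C1 (0.27), AKR1C2 (0.053), AKR1B10 and AKR1C4, which is listed at 0. The ranges of AKR1C1 (0.09 to 0.51 FPKM) and AKR1C2 (0.02 to 0.11 FPKM) overlapped, as did those of AKR1C2 and AKR1B10 and of AKR1B10 and AKR1C4, while the higher neighbours were separate. In shPUS1 AKR1C3 stood above AKR7A2, with 33.1 ± 2.92 FPKM against 14.1 FPKM, and came second to AKR1A1 at 43.4 FPKM. The ranges of AKR1C3 and AKR7A2 did not overlap in either group, and their order was thus opposite in the groups. AKR1C1 followed with 2.95 ± 0.55 FPKM and AKR1C2 with 0.57 ± 0.22 FPKM, and only the ranges of AKR1C2 and AKR1B10 overlapped among neighbours in shPUS1. FPKM values depend on the listed exonic length, which was 8765 bases for AKR1C1, 6461 for AKR1C2, 3911 for AKR1C3 and 1914 for AKR1C4, although their coding lengths are equal. On summed FPKM AKR1C3 made up 96.5% of the AKR1C level in shControl and 90.4% in shPUS1. With the equal coding lengths the length cancels, and the shares are the mean shares of counts, 92.8% and 81.5%.

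The stretch before each RefSeq start site (GRCh38.p14) was compared among the members because the AKR1C genes are neighbours with related sequences. Of the 7 members, 6 had an entry. The 250 bases upstream of AKR1C1 (chr10:4963165-4963414, plus strand) and AKR1C2 (chr10:5003858-5004107, minus strand) were 96.5% identical, nearly as close as the coding sequences. Upstream sequence of AKR1C3 (chr10:5094164-5094413, plus strand) was 69.2% identical to that of AKR1C1. Capitals mark matches to the core of the antioxidant response element, to which NRF2 binds, searched as TGACNNNGC or TGAGNNNGC on both strands.
AKR1C1: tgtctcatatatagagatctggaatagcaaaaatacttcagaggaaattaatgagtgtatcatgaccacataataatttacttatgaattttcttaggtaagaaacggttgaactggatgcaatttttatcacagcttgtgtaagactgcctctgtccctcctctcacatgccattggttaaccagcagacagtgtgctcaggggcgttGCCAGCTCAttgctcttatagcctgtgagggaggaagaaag
AKR1C2: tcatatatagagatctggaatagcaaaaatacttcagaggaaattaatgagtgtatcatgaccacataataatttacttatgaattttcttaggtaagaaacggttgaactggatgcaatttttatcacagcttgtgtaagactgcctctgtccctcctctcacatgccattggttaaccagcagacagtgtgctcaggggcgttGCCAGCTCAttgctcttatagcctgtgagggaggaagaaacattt
AKR1C3: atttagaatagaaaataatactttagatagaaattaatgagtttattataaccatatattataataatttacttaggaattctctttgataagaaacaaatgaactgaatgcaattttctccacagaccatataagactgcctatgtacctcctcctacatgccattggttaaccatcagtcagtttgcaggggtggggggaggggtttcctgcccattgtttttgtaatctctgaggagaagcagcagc
AKR1C1 and AKR1C2 each had 1 match on the reverse strand, beginning 41 and 45 bases before the start, in the same surrounding sequence. No match was found in either listed upstream stretch of AKR1C3 (the other is chr10:5048531-5048780) nor in those of AKR1C4 and AKR1A1, and 3 were found for AKR7A2, with a GC content of 79.2%. Of all 35116 promoters listed, 23.9% held at least 1 match in the same length. The AP-1 heptamer TGACTCA, found in 4.2% of promoters, was in none of the members' stretches, and TATAAA, found in 10.7%, was in that of AKR1C4 and in the other one of AKR1C3. A match is a description of letters only.

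Within 500 kb of the span from AKR1C1 to AKR1C4, 39 genes are listed, and 13 were tested. None of the 10 tested genes that are not members was called by edgeR's quasi-likelihood test or by DESeq2, and 1 had an unadjusted p under 0.05 in edgeR. Over all genes, edgeR called 0.888% higher and 0.481% lower, DESeq2 called 1.66% and 1.58%, and 25.5% had an unadjusted p under 0.05 in edgeR. Nearest to the threshold was AKR1C7P, a pseudogene of the AKR1C group that had 2, 3 and 5 counts in shControl 1 to 3 and 24, 22 and 14 counts in shPUS1 1 to 3. The groups did not overlap. Its log2 fold change was 2.41 (SE 0.50, adjusted p = 0.0519 with edgeR), and DESeq2 gave no adjusted p for it. It too passed the filter on low counts only through the shPUS1 libraries, so it was tested only because it was higher there. Next to it, the noncoding LINC02561 had a log2 fold change of 1.07 (SE 0.50) with overlapping groups. AKR1E2, an aldo-keto reductase that lies before AKR1C1, had 29, 28 and 20 counts in shControl and 32, 31 and 18 in shPUS1, a log2 fold change of -0.06 (SE 0.34). The noncoding MANCR and LINC00705, the unnamed ENSG00000287023, TUBAL3, NET1, ASB13 and TASOR2 had values between -0.39 and 0.67, all with overlapping groups. The highest of these values was that of ENSG00000287023, which also passed the filter on low counts only through the shPUS1 libraries.

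**Figure D4:**
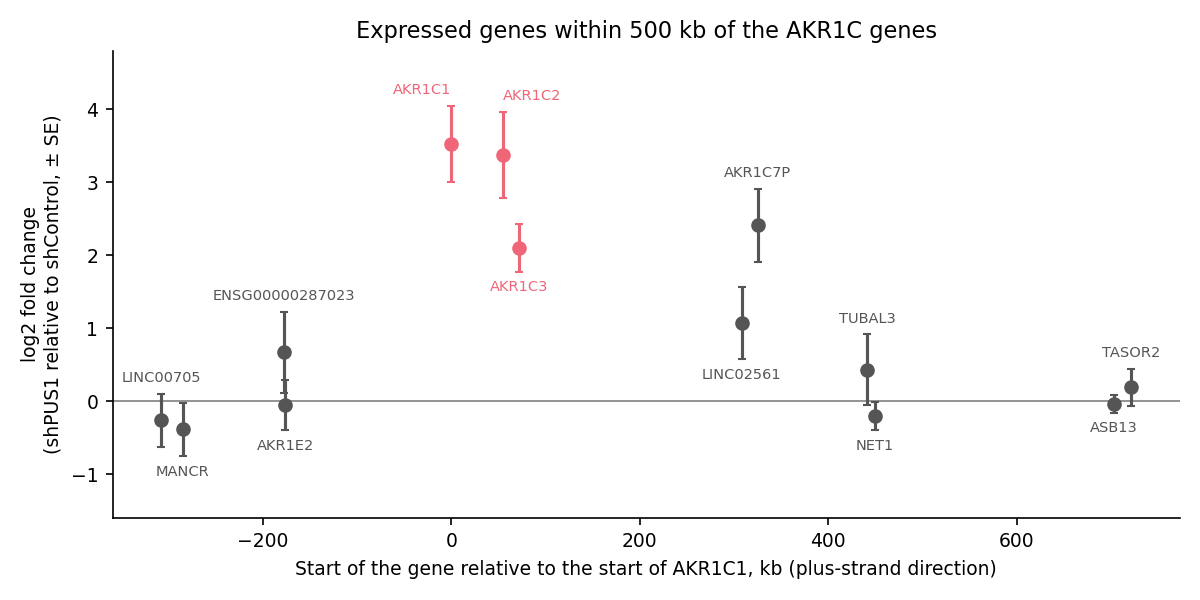
Log2 fold change (± SE) of the tested genes against the distance of their start from that of AKR1C1, in kb, with members in red. AKR1C1, AKR1C2 and AKR1C3 lie between 2.10 and 3.53, AKR1C7P at 2.41 and the other neighbours between -0.39 and 1.07.

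Beside the members, the table has 23 rows whose symbol starts with AKR and a digit. Of these, 12 were at 0 counts in every library and 3 were tested, AKR1E2 and AKR1C7P as above and AKR1B1. AKR1B1, the aldose reductase that makes sorbitol, was called higher, at 183 to 412 CPM in shControl and 1386 to 1783 CPM in shPUS1 (log2 fold change 2.30, SE 0.29, adjusted p = 0.0215 with edgeR). The remaining 8 rows were below the filter with at most 7 counts in a library. They were AKR1B10P1, AKR1B15, AKR1B1P1, AKR1B1P2, AKR1C8P, AKR1D1, AKR7A3 and AKR7L. AKR1B1P1, a pseudogene of AKR1B1, had 5, 6 and 7 counts in shPUS1 and 0 in each shControl library.

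The tested genes whose pattern over the 6 libraries was most like the AKR1C sum were LINC02009, WFDC21P, AKR1B1, ARHGAP25 and SLC1A3. Likeness was the root mean square difference of log2 CPM values centred on each gene's mean, which was 0.110, 0.120, 0.131, 0.194 and 0.201 for these genes and had a median of 1.32 over all. AKR1C3, which makes up most of the sum, had 0.0986, AKR1C1 0.761, AKR1C2 0.666, AKR1A1 1.06 and AKR7A2 1.57. LINC02009, a noncoding RNA gene, had 10.9, 4.51 and 9.06 CPM in shControl 1 to 3 and 35.4, 42.8 and 38.0 CPM in shPUS1 1 to 3. In all 5 genes, as in the AKR1C sum, shControl 2 was lowest and shPUS1 2 highest. The choice by likeness over the 6 libraries favours such an order, so nothing is read from it. Of the 5 genes, ARHGAP25 was not called. SLC1A3, a glutamate and aspartate transporter, had 20.2, 7.13 and 19.8 CPM against 60.7, 72.7 and 66.2 CPM.

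Genes related to the members by family, substrates, receptors of these substrates, cofactor supply or the NRF2 pathway were taken from 9 lists with 131 genes. The lists were written from general knowledge, but with earlier results of these data known, so their calls are a description. Of 89 tested, 3 were called higher and 2 lower by edgeR's quasi-likelihood test. Over all genes tested, 0.888% were called higher and 0.481% lower. Beyond AKR1B1, the calls were ME1, PTGER3, DHRS4 and CBR3. An unadjusted p under 0.05 was found for 25 of the 89 (28.1%) and for 25.5% of all genes tested. Leaving out shControl 1 or any 1 of the shPUS1 libraries left 0 calls among the list genes in edgeR. Few genes were called at all in these fits, 11 without shControl 1 and 11, 6 and 0 without shPUS1 1, 2 and 3. In these fits 15.7% to 26.7% of the list genes had an unadjusted p under 0.05, and over all genes from 2112 of 15082 (without shPUS1 2) to 3750 of 15144 (without shControl 1) did. The median log2 fold change over all tested genes was -0.03.

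Among 13 tested short-chain and quinone reductases, 0 were called higher and 2 lower, against 0.888% and 0.481% of all genes. These enzymes reduce carbonyls with NADPH as aldo-keto reductases do, and the list median was -0.15. DHRS4, a peroxisomal reductase of retinal and other carbonyls, was at 5.56, 6.97 and 4.02 CPM in shControl and 2.17, 1.70 and 2.07 CPM in shPUS1 (log2 fold change -1.48, SE 0.29, adjusted p = 0.0462 with edgeR). CBR3, a carbonyl reductase, was at 6.81, 11.8 and 7.63 CPM in shControl and 3.67, 2.90 and 3.54 CPM in shPUS1 (-1.38, SE 0.27, adjusted p = 0.0467 with edgeR). Both were lower in every shPUS1 library than in any shControl library, the opposite order to the AKR1C genes. DHRS3, a retinal reductase, had a log2 fold change of -0.59 (SE 0.23) and was not called.

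Among 13 tested steroid converting enzymes, 0 were called in either direction by edgeR or DESeq2, 5 had an unadjusted p under 0.05 in edgeR (25.5% of all genes did), and the list median was -0.04. SRD5A3, a polyprenol reductase related to the steroid 5α-reductases, had the smallest p, with 6.19 ± 0.363 CPM in shControl and 3.12 ± 0.159 CPM in shPUS1 (SD, n = 3 each, log2 fold change -0.99, SE 0.21, adjusted p = 0.0521 with edgeR). STS, which removes sulfate from steroids, had a log2 fold change of 0.95 (SE 0.24) and HSD17B11 one of -0.54 (SE 0.13), each without overlap and not called. Without shControl 2, STS was at 1.26 and was called. Of 6 steroid receptors 3 were tested and 0 called by edgeR or DESeq2, with 1 unadjusted p under 0.05 in edgeR (25.5% of all genes). For both lists, the shares called over all genes were 0.888% higher and 0.481% lower with edgeR, and 1.66% and 1.58% with DESeq2. The mineralocorticoid receptor NR3C2 had 9.36, 3.72 and 14.2 CPM in shControl and 19.8, 18.4 and 17.0 CPM in shPUS1 (log2 fold change 1.03, SE 0.41), ESR2 had 1.02 at very low levels and the glucocorticoid receptor NR3C1 had 0.14. ESR2 passed the filter on low counts only through the shPUS1 libraries, as AKR1C2 did, so nothing is read from its direction.

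Of 16 tested prostaglandin enzymes, carriers and receptors, 1 was called higher and 0 lower, against 0.888% and 0.481% of all genes. The list median was 0.17. The call was PTGER3, a receptor of prostaglandin E2, at 0.262, 0.157 and 0.545 CPM in shControl and 1.61, 1.64 and 1.77 CPM in shPUS1 (log2 fold change 2.39, SE 0.47, adjusted p = 0.0467 with edgeR). These levels rest on 15 counts in shControl and 89 in shPUS1, and DESeq2 gave no adjusted p for the gene. PTGER3 passed the filter on low counts only through the shPUS1 libraries, as AKR1C2 did, and could therefore be called only as higher. HPGD, which inactivates prostaglandins, had a log2 fold change of 1.82 (SE 0.48), also at low counts and with the same limit, and PPARG, a nuclear receptor bound by prostaglandin J2 products, had 0.90 (SE 0.22). Neither was called, and the groups did not overlap for either.

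The aldehyde dehydrogenases, which oxidize the aldehydes that aldo-keto reductases reduce, had a list median of -0.22 over 15 tested genes. None was called by edgeR (0.888% of all genes higher, 0.481% lower) or DESeq2 (1.66% and 1.58%). An unadjusted p under 0.05 in edgeR was found for 3, and for 25.5% of all genes. ALDH3B1 had a log2 fold change of -0.46 (SE 0.15), ALDH1A3 one of -0.53 (SE 0.20) and ALDH16A1 one of -1.01 (SE 0.41), the last resting on shControl 2, since it was -0.33 without that library. The only tested alcohol dehydrogenase was ADH5, at -0.24 (SE 0.12). Of the 12 genes for NADPH supply 1 was called higher, against 0.888% of all genes. It was ME1, the cytosolic malic enzyme, at 40.2, 34.1 and 34.6 CPM in shControl and 77.5, 81.4 and 74.6 CPM in shPUS1 (log2 fold change 1.10, SE 0.13, adjusted p = 0.0182 with edgeR). The values within each group were close together. ME3, a mitochondrial malic enzyme, had 0.37 (SE 0.14) and IDH2 had -0.49 (SE 0.23), and the list median was 0.05. Of 15 genes of the NRF2 pathway, ME1 was the only call (0.888% of all genes were called higher). An unadjusted p under 0.05 was found for 6 (25.5% of all genes), and the list median was -0.01. The groups did not overlap for 7 of the 15 in the higher direction and for 1 in the lower, against 18.8% and 17.3% of all genes. Other lists with at least 12 tested genes held such genes too. Higher and lower, they were 0 and 5 of 13 short-chain and quinone reductases and 1 and 4 of 13 steroid converting enzymes. They were 6 and 3 of 16 prostaglandin genes, 4 and 0 of 12 NADPH supply genes, and 1 and 4 of 15 aldehyde dehydrogenases. The cystine transporter SLC7A11 had a log2 fold change of 0.64 (SE 0.18) and GCLM, a subunit of the glutathione-synthesizing enzyme, one of 0.41 (SE 0.12), both without overlap of the groups and not called.

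**Figure D5:**
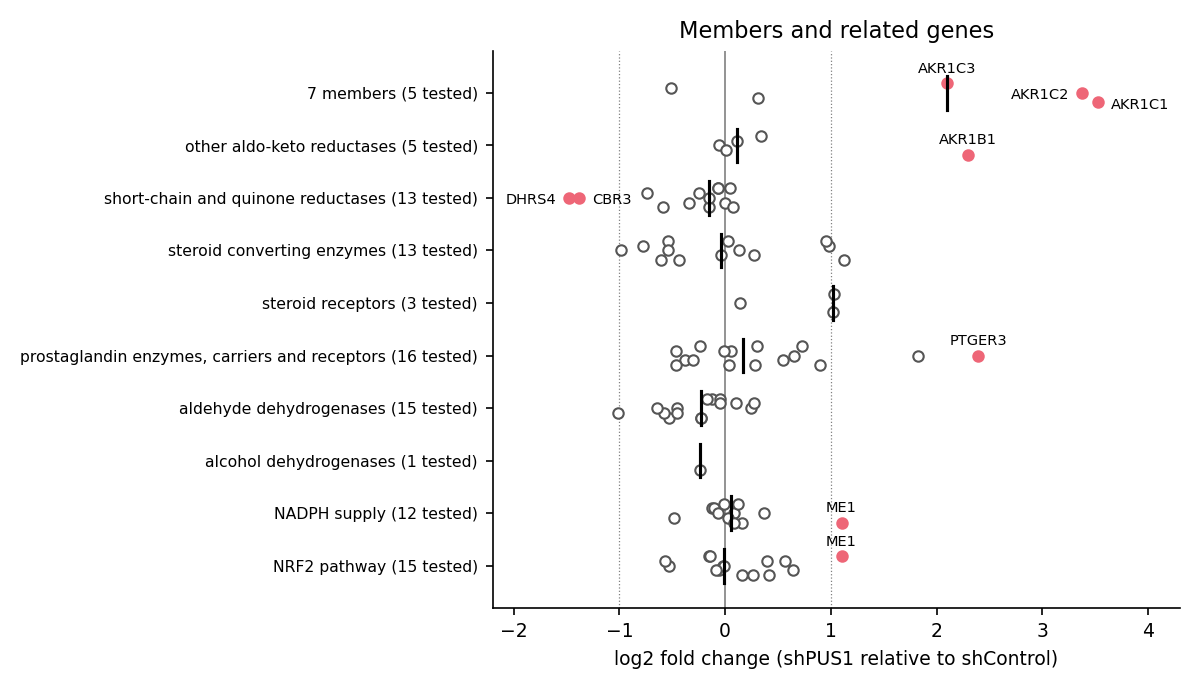
Log2 fold change of every tested gene among the 7 members and in the 9 lists, filled and named where called, with a black line at each list's median and dotted lines at -1 and 1. Calls outside the members are AKR1B1 (2.30), PTGER3 (2.39), ME1 (1.10, in the NADPH and NRF2 lists), DHRS4 (-1.48) and CBR3 (-1.38).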

How the data were processed

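Poly(A) RNA of 3 shControl and 3 shPUS1 libraries was measured. Per the labels and methods, the authors aligned reads with HISAT2 and counted them with HTSeq 0.6.1. Genome build, annotation, strand setting and treatment of multi-mapped reads are not given in the sources used here. The deposited estimated counts (29.8% to 31.8% of values above 0 not whole) were not normalized. The deposited FPKM values were made by the authors from these counts, the library total and a listed exonic length. Columns of functional terms were not used, and coordinates were taken from the table. Of its 60605 genes, 58382 had an identifier in GENCODE release 29, 74.6% of these with the same position, and that release's build, GRCh38, was taken as the table's.

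Counts were rounded, filtered with filterByExpr, scaled by TMM and fitted by edgeR 4.0.16 with its quasi-likelihood test (R 4.3.3) over 14748 genes, with Benjamini-Hochberg adjustment. SE was the log2 fold change divided by the square root of F. The AKR1C sum was fitted as 1 row in place of its genes. Count ratios and shares have exact or Wilson 95% intervals, for counting error only. DESeq2 1.42.0, limma 3.58.1 on log2(FPKM + 1) and log2(FPKM + 0.1) where mean FPKM reached 1, voom with sample weights, DESeq2 size factors, no filter, a replicate block and each library left out in turn were alternatives. The equal coding length was added after seeing the data. The script was tested on simulated data. Coding sequences were compared with Biopython 1.88, and plots were made with matplotlib 3.10.9. Members and lists were chosen with earlier results of these data known. Named genes were PUS1, the members, all other AKR rows, in each list the genes called and otherwise up to 3 with the smallest p, the tested genes within 500 kb of the AKR1C cluster and the 5 genes most like the AKR1C sum. Replicate numbers were not treated as pairs except in the replicate block.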

Additional observations from a re-analysis of the deposited data

How the results depend on the processing

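The AKR1C sum kept its direction in 13 of 13 alternatives, with log2 fold changes between 1.94 and 2.69, and no member reversed. AKR1A1 lay between 0.14 and 0.49 and AKR7A2 between -0.60 and -0.36. Genes called numbered 202 in the fit of all libraries, 478 with DESeq2, 541 with voom and sample weights, 536 without a filter, 112 with limma on log2(FPKM + 0.1), 87 on log2(FPKM + 1) and 18 with a replicate block. With each library left out in turn they numbered 0 to 497, with 11 without shControl 1 and 11, 6 and 0 without shPUS1 1, 2 and 3. The count of 0 came from edgeR without shPUS1 replicate 3, where 2581 genes had an unadjusted p under 0.05. Members called numbered 3, 0 with the replicate block and 0 to 3 with a library left out (1 without shControl 1 or 3, 3 without shControl 2, 0 without any shPUS1 library). Genes called in the 9 lists numbered 5, 3 on log2(FPKM + 1), 1 with the replicate block and 0 to 6 with a library left out, with 0 without shControl 1 or any shPUS1 library. The cause of these differences was not tested. For same-numbered libraries the labels give only the number in common. Their residuals from the group means had correlations of -0.05, -0.03 and -0.19. With 3 libraries per group these say little, and a shared culture or batch was not tested. AKR1C1 fell to 1.65 on log2(FPKM + 1), a scale that understates the change of low genes. With equal coding lengths the share of AKR1C3 in the AKR1C level was 81.5% in shPUS1 and 92.8% in shControl, which repeats its share of counts. Counts of AKR1C4 and AKR1B10 were too low for a fold change from the fit.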
